A study of Arabidopsis thaliana with 4 samples.

Results

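The organelle-encoded transcripts were all the genes in the table whose identifier begins with ATCG, the prefix of the chloroplast genome, or with ATMG, the prefix of the mitochondrial genome. There were 133 chloroplast and 152 mitochondrial identifiers, 285 of 37336 rows in all. They were measured in 2 *s2lb-2* and 2 wild-type (WT) Col-*0* libraries of polyadenylated RNA from whole seedlings, 6 days old, grown in vitro with 16 h of light and 8 h of dark and collected at ZT 8. *s2lb-2* is 1 insertion line of *S2Lb* (*AT5G66240*), which encodes a subunit associated with the COMPASS-like complex for H3K4 trimethylation. It came from a Nossen allele through 5 successive backcrosses in which Col-*0* was the female parent. Biological replicates of a genotype came from different seed batches, and which batch gave which library is not given in the sources used here. The titles name these samples s2lb, whereas their genotype field names a tagged SDG2 line. The normalized count of *S2Lb* was 80.8 and 67.2 in *s2lb-2* and 1337 and 1613 in WT, in the direction of the titles.

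Chloroplasts and mitochondria keep small genomes of their own. The chloroplast genome encodes part of the photosynthetic machinery, the large subunit of Rubisco, ribosomal components and a bacterial-type RNA polymerase (PEP). The mitochondrial genome encodes subunits of the respiratory chain and of ATP synthase, ribosomal components and cytochrome *c* maturation factors. PEP needs nuclear-encoded sigma factors, while nuclear-encoded phage-type polymerases transcribe the mitochondrial genome and part of the chloroplast genome. Organelle RNAs in plants largely lack stable poly(A) tails, and short tails mark them for decay, so that oligo(dT) purification samples them only in part. Neither genome is packaged with histones.

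Organelle transcripts were a small part of every library, and no chloroplast or mitochondrial gene passed the test between *s2lb-2* and WT seedlings. Chloroplast transcripts differed far more between libraries of the same genotype than between genotypes. Their summed share was 2.99-fold higher in library 2 than in library 1 of *s2lb-2*, and 2.01-fold higher in library 2 than in library 1 of WT. The mitochondrial reads came almost wholly from 2 identifiers, which the annotation at hand does not name. Many identifiers of both genomes held no read at all, and several of these have a second, identical copy elsewhere. In whole seedlings, differences in the number of green cells, in organelle RNA per cell and in RNA carried through purification cannot be told apart.

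STAR counted only reads that map to 1 place, so a stretch with a second copy is not counted. Among the chloroplast genes with a name in the annotation, *clpP* (ATCG00670, a plastid-encoded subunit of the Clp protease) and *rpl2* (ATCG01310, ribosomal protein L2) show both situations. The first 50 coding bases of each, with the start codon in capitals, were read from the RefSeq TAIR10.1 chloroplast sequence (Pltd).
clpP, Pltd:71833-71882, minus strand: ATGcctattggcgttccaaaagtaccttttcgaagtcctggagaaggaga
rpl2, first copy, Pltd:85794-85843, minus strand: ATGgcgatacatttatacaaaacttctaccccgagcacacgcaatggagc
rpl2, second copy, Pltd:152806-152855, plus strand: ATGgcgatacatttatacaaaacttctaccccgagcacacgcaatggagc
The *clpP* stretch occurred 1 time in the chloroplast genome and 0 times in the nuclear and mitochondrial sequences. The *rpl2* stretch occurred 2 times in the chloroplast genome, once in each arm of the inverted repeat. ATCG00670 had 144 and 360 normalized counts in *s2lb-2* and 150 and 250 in WT, whereas ATCG01310 had 0 reads in all 4 libraries.

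The mitochondrial genome has a large copy in the nucleus. In RefSeq TAIR10.1, nuclear 50-base stretches identical to mitochondrial sequence lay for 98.2% on chromosome 2, nearly all of them between 3239038 and 3509765. Starts of *cox3* (ATMG00730, cytochrome *c* oxidase subunit 3) and a stretch of mitochondrial *rpl2* (ATMG00560, described as an OB-fold nucleic acid-binding protein) were compared with these copies, with differing bases in capitals.
ATMG00730, MT:330724-330773, minus strand: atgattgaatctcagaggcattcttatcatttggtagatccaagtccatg
AT2G07687, chr2:3312602-3312651, minus strand: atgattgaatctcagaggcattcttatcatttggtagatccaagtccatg
ATMG00560, MT:222067-222116, minus strand: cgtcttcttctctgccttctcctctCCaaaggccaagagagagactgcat
AT2G07715, chr2:3411674-3411723, plus strand: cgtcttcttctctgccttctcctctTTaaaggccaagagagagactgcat
The *cox3* stretch is identical in both genomes, and every 50-base stretch of the exons of *AT2G07687* was also found in the mitochondrial sequence (100%). The *rpl2* stretches, chosen because they differ, have 2 mismatches, and each occurred in 1 genome only. ATMG00730 had 0 reads in the 4 libraries, and its nuclear copy had 2. ATMG00560 had 1 and 5 reads in *s2lb-2* and 1 and 1 in WT, while *AT2G07715* had 51 reads in all.

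Chloroplast identifiers took 0.0411% and 0.123% of the reads on genes in *s2lb-2*, and 0.0460% and 0.0925% in WT, which corresponds to 15822 and 42159 reads and to 16153 and 36166 reads. The second library of each genotype was the high one, and the genotypes overlapped. Means were 0.0820% ± 0.0578 in *s2lb-2* and 0.0692% ± 0.0329 in WT (SD, n = 2 each), a fold of 1.18 (exact permutation test, two-sided, p = 1, where the smallest p that 2 against 2 libraries allow is 0.33). The fold was 0.594 without library 2 of *s2lb-2*, 0.886 without library 1 of WT, 1.77 without library 1 of *s2lb-2* and 1.78 without library 2 of WT, so that its direction rested on single libraries. Between libraries of the same number, a comparison chosen after seeing the data, *s2lb-2* had 0.894 times the share of WT for number 1 and 1.33 times for number 2.

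Mitochondrial identifiers took 0.0248% and 0.0432% of the reads in *s2lb-2*, and 0.0309% and 0.0310% in WT. The WT libraries were alike and lay between those of *s2lb-2*. The fold of the means was 1.10 (exact permutation test, two-sided, p = 1). It was 0.801 without library 2 of *s2lb-2* and 1.40 without library 1 of *s2lb-2*. There were 1.66 and 2.84 chloroplast reads per mitochondrial read in *s2lb-2*, and 1.49 and 2.98 in WT, so this ratio too followed the library number in both genotypes.

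**Figure D1:**
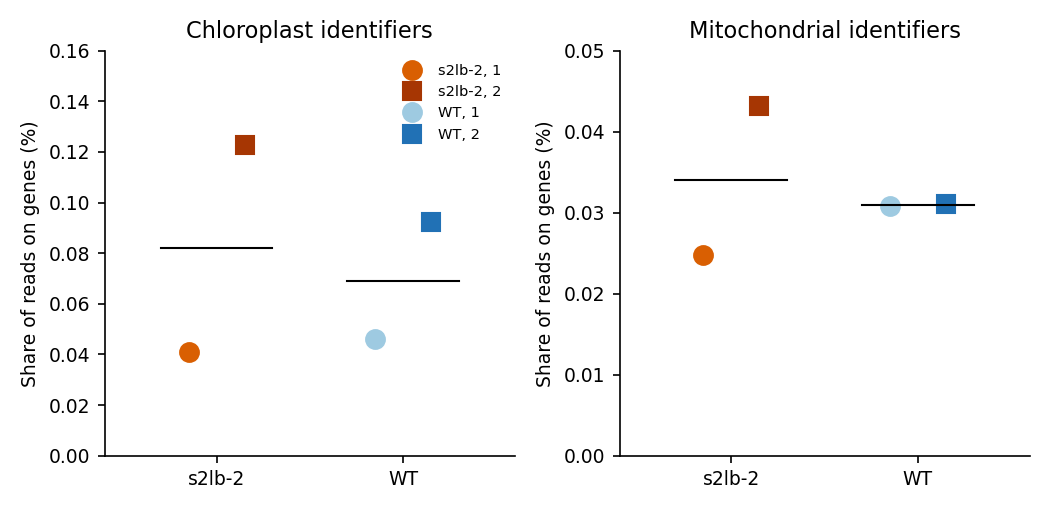
Share of the reads on genes (%) taken by chloroplast identifiers (left) and mitochondrial identifiers (right) in the 2 *s2lb-2* and 2 WT libraries. Each point is a library and each bar the mean of a genotype. The chloroplast share was 0.123% and 0.0925% in the libraries numbered 2, above 0.0411% and 0.0460% in those numbered 1.

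Of the 133 chloroplast identifiers, 97 had reads, 87 had reads in every library and 36 had none. The limit for the test, 1 normalized count on average over the 4 libraries, was reached by 92. The counts are not per length, since no lengths are paired with these identifiers, and the order below is therefore one of counts and not of transcript levels. ATCG00490 was the highest, with 2452 and 6895 normalized counts in *s2lb-2* against 2767 and 5009 in WT. ATCG00020 had 1768 and 3870 in *s2lb-2* against 2521 and 2479 in WT. ATCG00340 had 1181 and 3327 in *s2lb-2* against 1155 and 2575 in WT. For each of these, library 2 of *s2lb-2* was the highest of the 4 and library 1 of *s2lb-2* or of WT the lowest. The log2 fold changes were 0.14 (SE 0.521) for ATCG00490, 0.07 (SE 0.347) for ATCG00020 and 0.20 (SE 0.572) for ATCG00340, each far within the spread between libraries. For ATCG00490 the 95% interval ran from -1.16 to 1.44, wide enough for more than a doubling in either direction.

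ATCG00280 had 1047 and 2939 normalized counts in *s2lb-2* and 1063 and 2086 in WT. ATCG00350 had 777 and 2417 in *s2lb-2* and 787 and 1910 in WT. ATCG00480 had 850 and 1724 in *s2lb-2* and 885 and 1573 in WT. In all 3, the libraries of the same number were closer to each other than those of the same genotype. ATCG00120 had 544 and 2100 in *s2lb-2* and 482 and 1522 in WT. ATCG00270 had 465 and 1648 in *s2lb-2* and 519 and 1232 in WT. ATCG00680 had 591 and 1416 in *s2lb-2* and 652 and 1125 in WT. These again were high in both libraries numbered 2. ATCG00180 had 343 and 716 in *s2lb-2* and 359 and 507 in WT, and ATCG00170 had 339 and 669 in *s2lb-2* and 291 and 534 in WT. The 12 highest identifiers together held 72.9% and 67.0% of the chloroplast reads in *s2lb-2*, and 72.6% and 64.3% in WT, the lower share being that of library 2 in each genotype.

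ATCG00190 stood apart among them in having the smallest spread, with 1007 and 1501 normalized counts in *s2lb-2* and 832 and 1057 in WT. The highest WT library lay above the lowest *s2lb-2* library. Its log2 fold change was 0.39 (SE 0.219, limma with Benjamini-Hochberg adjustment, adjusted p = 0.43), with a 95% interval of -0.16 to 0.94.

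**Figure D2:**
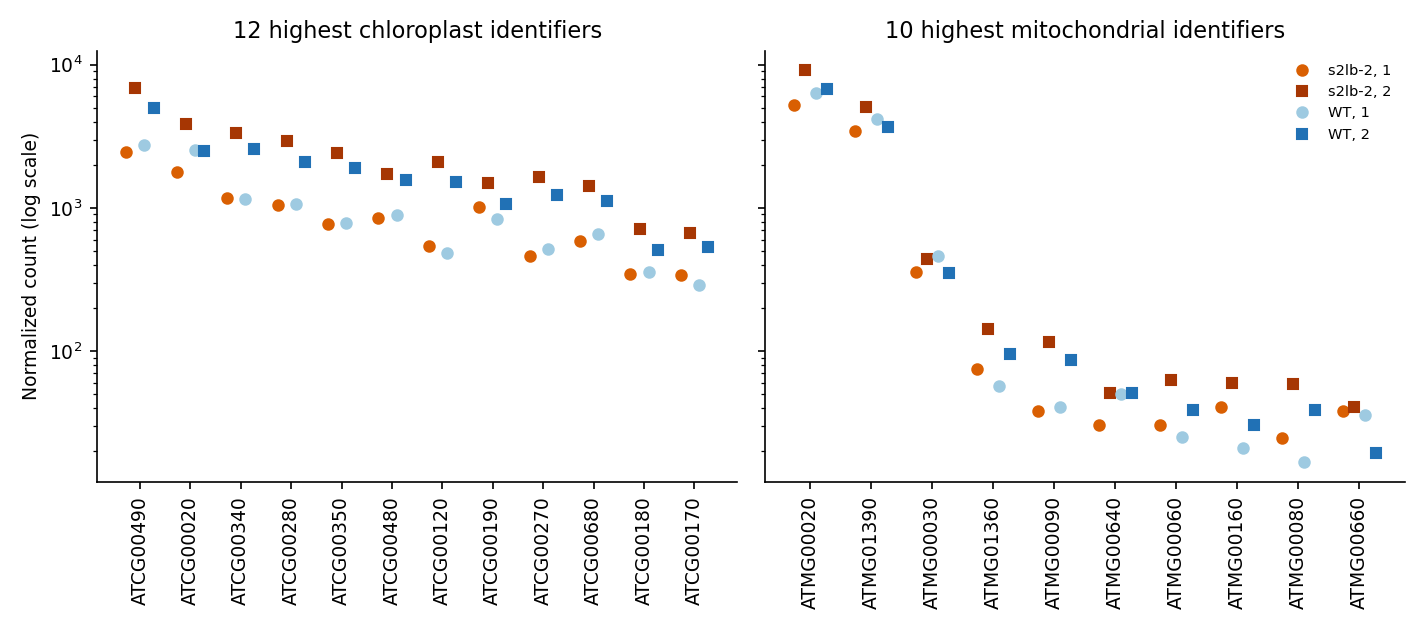
Normalized counts (log scale) in each of the 4 libraries for the 12 highest chloroplast identifiers (left) and the 10 highest mitochondrial identifiers (right); orange and brown, *s2lb-2*; light and dark blue, WT; circles, library 1; squares, library 2. ATCG00490 reached 6895 and 5009 in the libraries numbered 2 against 2452 and 2767 in those numbered 1, and ATMG00020 and ATMG01390 stood far above the other mitochondrial identifiers.

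Chloroplast genes with a name in the annotation followed the same course. ATCG00750 (ribosomal protein S11) had 100 and 345 normalized counts in *s2lb-2* and 93.4 and 240 in WT. ATCG00430, whose name in the annotation was not checked and is left out here, had 38.4 and 205 in *s2lb-2* and 53.5 and 120 in WT. ATCG00530 (a CemA-like protein of the chloroplast envelope) had 35.5 and 176 in *s2lb-2* and 44.1 and 228 in WT. Both libraries numbered 2 were above both numbered 1 for these genes, whatever the genotype, as they were for ATCG00670 (*clpP*). ATCG00660 (ribosomal protein L20) was lower, with 19.7 and 65.2 in *s2lb-2* and 13.6 and 60.4 in WT. Log2 fold changes of these 5 genes lay between -0.34 and 0.31, with SE between 0.474 and 1.00.

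None of the 92 chloroplast genes tested was called (limma on log2(normalized count + 1), Benjamini-Hochberg adjusted p under 0.01, 0 genes), where 0.122% of all 23723 genes tested were. An adjusted p under 0.05 was not reached either, against 1.6% of all genes. At an unadjusted p under 0.05 there was 1 chloroplast gene (1.09%), against 17.4% of all genes. On reads recovered from the normalized counts, edgeR, DESeq2 and limma-voom called 42, 730 and 31 of all genes (adjusted p under 0.01). Each of them called 0 chloroplast genes. The median log2 fold change was 0.08, with 53 genes above and 39 below 0, and that of all genes was -0.00. The median standard error was 0.714 for chloroplast genes and 0.169 for all genes tested, so that the absence of calls comes with intervals that were far wider than for most genes. The median of the intervals ran from -1.80 to 1.97.

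Leaving out single libraries moved the median of the chloroplast genes from 0.08 to -0.77 (without library 2 of *s2lb-2*), -0.60 (without library 1 of WT), 0.71 (without library 2 of WT) and 0.93 (without library 1 of *s2lb-2*). These fits leave 1 library in 1 genotype, so only their medians are given here. The 2 *s2lb-2* libraries lay outside the range of WT for 3 chloroplast genes (3.26%), against 49.5% of all genes tested. ATCG00230 had 2 and 4 reads in *s2lb-2* and 0 and 0 in WT, which is too few for a fold, and had the smallest p of the chloroplast genes (adjusted p = 0.25 by limma). ATCG00320 had 1.97 and 1.03 normalized counts in *s2lb-2* and 2.10 and 2.79 in WT. ATCG00590 had 0.985 and 1.03 in *s2lb-2* and 1.05 and 11.1 in WT. All 3 were near the limit of detection, and were named after their values were seen, ATCG00230 excepted. ATCG01020, with the third smallest p, had 32.5 and 120 in *s2lb-2* and 93.4 and 166 in WT, which overlapped, and its log2 fold change was -0.98 (SE 0.640, adjusted p = 0.50 by limma).

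**Figure D3:**
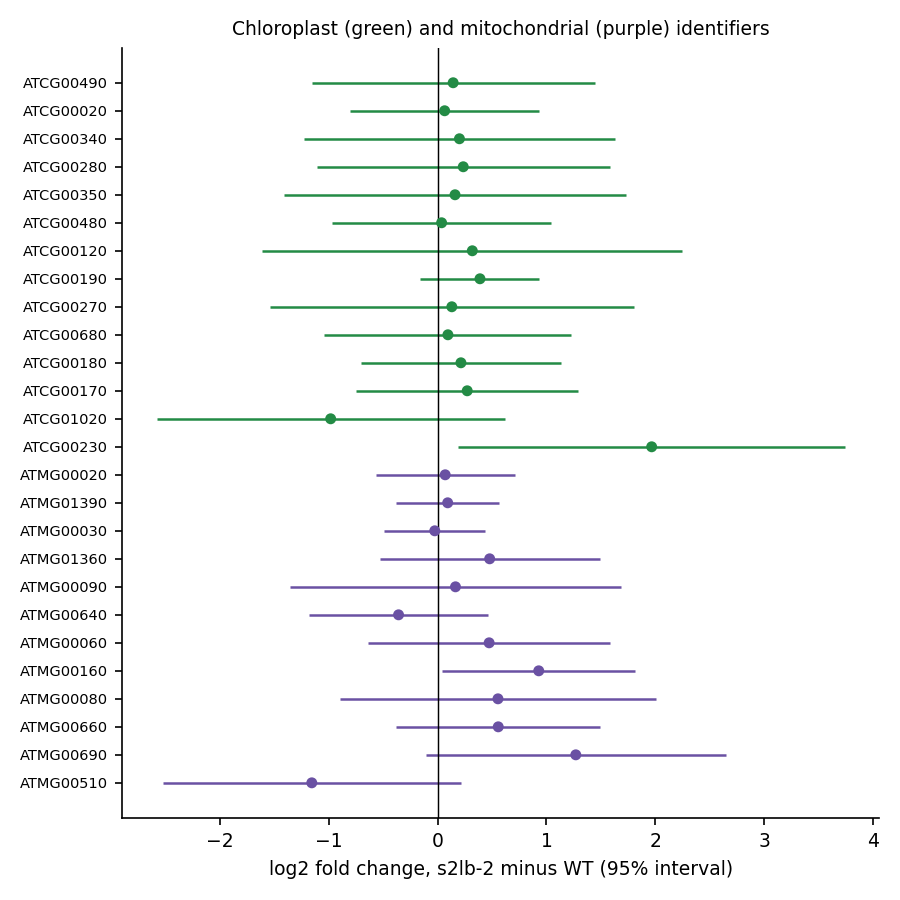
Log2 fold change of *s2lb-2* minus WT with its 95% interval (limma) for the 14 chloroplast (green) and 12 mitochondrial (purple) identifiers named by rule. Intervals of the highest chloroplast identifiers, such as -1.16 to 1.44 for ATCG00490, spanned 0, and the value of ATCG00230 (6 reads in *s2lb-2*, 0 in WT) depends on the pseudocount.

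The difference between libraries ran through nearly all chloroplast genes. Library 2 was above library 1 for 91 of 92 tested genes in *s2lb-2* and for 88 in WT. It was above in both genotypes for 87 (94.6%), against 28.2% of all genes tested, and below in both for 0. These genes share the libraries, so each genotype gives 1 comparison of library 2 with library 1. The median fold of library 2 over library 1 was 3.29 in *s2lb-2* and 2.42 in WT, while for all genes it was 0.998 in *s2lb-2* and 0.999 in WT. Among the 42 chloroplast genes with a mean of at least 100, ATCG00020 in WT was the one exception, at 0.983 against 2.19 in *s2lb-2*.

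The size of the difference varied among these 42 genes in much the same order in both genotypes. Pearson's r between the log2 ratios of *s2lb-2* and WT was 0.779 over the 42 genes, which are not independent and share the 4 libraries, and 0.434 over the 16263 genes of all genomes with that mean. Over all 92 genes, r was 0.293 and Spearman's rho 0.505, with many low counts among them. By the geometric mean of both ratios, ATCG00190 was at the low end, with 1.49-fold in *s2lb-2* and 1.27-fold in WT, followed by ATCG00020 and by ATCG00470, the last with 1.76-fold in *s2lb-2* and 1.45-fold in WT. At the high end ATCG01130 was 6.48-fold higher in library 2 than in library 1 of *s2lb-2* and 4.81-fold in WT. ATCG00040 was 6.04-fold higher in *s2lb-2* and 4.27-fold in WT, and ATCG01100 was 6.72-fold higher in *s2lb-2* and 3.69-fold in WT. ATCG01080 had the highest ratio in *s2lb-2* of the 42, 7.07-fold, and 2.64-fold in WT. For ATCG00530, WT had a ratio (5.16-fold) close to that of *s2lb-2* (4.96-fold). These genes were chosen for their ratios.

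**Figure D4:**
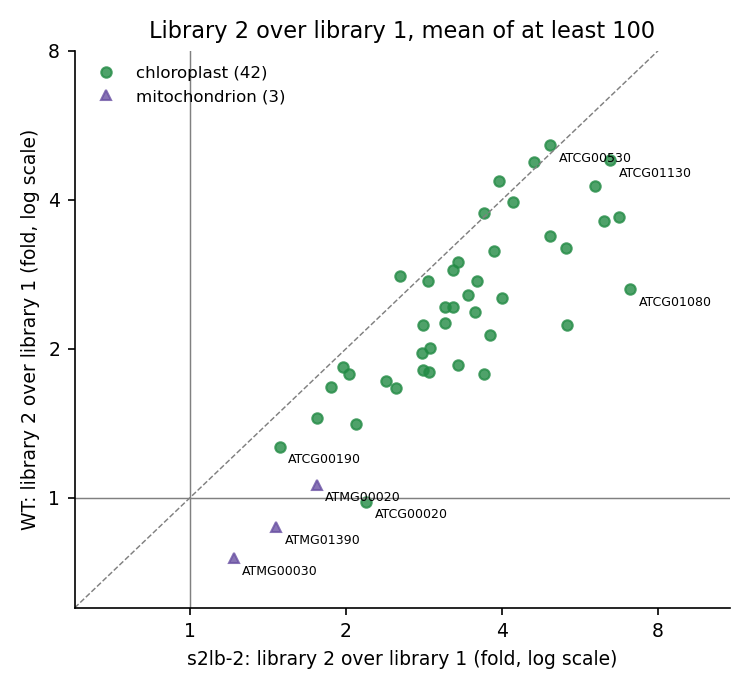
Fold of library 2 over library 1 in *s2lb-2* (x axis) and in WT (y axis), both on log scales, for the 42 chloroplast (circles) and 3 mitochondrial (triangles) identifiers that averaged 100 normalized counts or more. The dashed line marks equal ratios; chloroplast identifiers lay between 1.49 and 7.07 in *s2lb-2*, and ATCG00190 and ATCG01130 were near the ends in both genotypes.

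Nuclear marker genes did not rise in library 2 of both genotypes as nearly all chloroplast genes did. Higher in library 2 of both were 0 photosynthetic shoot markers, 1 root marker and 0 seed storage genes. The 5 photosynthetic shoot markers (*CAB1*, *RBCS1A*, *CA1*, *GAPA*, *RCA*), summed, were 0.903-fold in library 2 over library 1 of *s2lb-2* and 0.976-fold in WT. Each of them but *RBCS1A* was lower in library 2 of both genotypes, as were 6975 of all 23723 genes tested. *RBCS1A* was lower in library 2 of *s2lb-2* and higher in that of WT. The 6 root markers were 1.05-fold in *s2lb-2* and 0.768-fold in WT. The 2 seed storage genes, *OLEO1* for an oil body oleosin and *CRU3* for a cruciferin, summed to 58.1 and 9.31 normalized counts in *s2lb-2* and 115 and 19.5 in WT, and were thus lower in library 2 of both genotypes (0.160-fold of library 1 in *s2lb-2* and 0.169-fold in WT). Most of this came from *CRU3*, with 45.3 and 3.10 in *s2lb-2* and 89.2 and 3.72 in WT, near the counting floor in library 2. *OLEO1* fell less, with 12.8 and 6.21 in *s2lb-2* and 26.2 and 15.8 in WT. Whether the seed storage counts bear on the chloroplast difference was not tested, and seed batch and library cannot be told apart.

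Of the 36 chloroplast identifiers without reads, 34 fell in 2 runs of identifiers, ATCG00830 to ATCG01000 and ATCG01140 to ATCG01310, which hold 37 identifiers and 6 reads in all. The other 96 identifiers held 110294 reads and included 2 without any. A count of 0 allows up to 3 reads per library, and for a sequence with a second copy it says nothing of the transcript. In the RefSeq chloroplast genome 34.3% of 50-base stretches occur more than once in organelle DNA, and 12 of 87 protein-coding and 7 of 7 rRNA genes had no stretch that occurs once. Which of these genes the identifiers stand for was looked up for ATCG01310 only, since the annotation at hand names few of them.

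The mitochondrial identifiers were more unevenly covered. Of the 152, 50 had reads, 25 had reads in every library, 102 had none and 28 were tested. ATMG00020 had 5193 and 9140 normalized counts in *s2lb-2* and 6360 and 6769 in WT. ATMG01390 had 3443 and 5053 in *s2lb-2* and 4187 and 3652 in WT. In both, the WT libraries lay between the *s2lb-2* libraries. The log2 fold changes were 0.07 (SE 0.256) for ATMG00020 and 0.09 (SE 0.190) for ATMG01390. These 2 identifiers held 91.9% and 92.5% of the mitochondrial reads in *s2lb-2*, and 92.6% and 92.5% in WT. Without them the mitochondrial share was 0.00201% and 0.00323% in *s2lb-2*, and 0.00227% and 0.00234% in WT.

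The nuclear 18S ribosomal RNA row *AT3G41768*, whose product is not polyadenylated as a rule, was in a like order, with 5411 and 11831 normalized counts in *s2lb-2* and 8857 and 8966 in WT. The sum of 4 nuclear ribosomal RNA rows, nearly all of it from *AT3G41768*, was 2.18-fold higher in library 2 than in library 1 of *s2lb-2* and 1.01-fold in WT. For ATMG00020 the same ratios were 1.76 in *s2lb-2* and 1.06 in WT. For ATMG01390 they were 1.47 in *s2lb-2* and 0.872 in WT. The part of ribosomal RNA carried through the purification in the mitochondrial counts was not tested.

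ATMG00030 had 359 and 436 normalized counts in *s2lb-2* and 463 and 350 in WT, and its log2 fold change was -0.03 (SE 0.186). The next 7 had means of 92.2 to 33.5 over the libraries. ATMG01360 had 74.9 and 142 in *s2lb-2* and 56.7 and 95.7 in WT, and ATMG00090 had 38.4 and 116 in *s2lb-2* and 40.9 and 86.4 in WT. ATMG00640 had 30.5 and 50.7 in *s2lb-2* and 50.4 and 51.1 in WT, ATMG00060 had 30.5 and 63.1 in *s2lb-2* and 25.2 and 39.0 in WT, and ATMG00080 had 24.6 and 59.0 in *s2lb-2* and 16.8 and 39.0 in WT. All of these overlapped between genotypes, and for all 5 both libraries numbered 2 were above both numbered 1, for ATMG00640 by a small margin.

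Mitochondrial genes called by limma numbered 0 of 28 (adjusted p under 0.01, against 0.122% of all genes), and 0 at an adjusted p under 0.05, against 1.6% of all genes. At an unadjusted p under 0.05 there was 1 (3.57%), against 17.4% of all genes. On recovered reads, edgeR, DESeq2 and limma-voom called 42, 730 and 31 of all genes (adjusted p under 0.01). Each of them called 0 mitochondrial genes. The median log2 fold change was 0.13, with 18 genes above and 10 below 0 and a median SE of 0.524. It was -0.17 without library 2 of *s2lb-2* and 0.45 without library 1 of *s2lb-2*. The 2 *s2lb-2* libraries lay outside the range of WT for 7 of the 28 genes (25%), 5 higher and 2 lower in *s2lb-2*, a smaller share than the 49.5% of all genes.

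ATMG00160 had the smallest p of these, with 40.4 and 60.0 normalized counts in *s2lb-2* and 21.0 and 30.7 in WT. Both *s2lb-2* libraries were above both WT libraries. Its log2 fold change was 0.93 (SE 0.355, 95% interval 0.04 to 1.81), which did not pass the correction over all genes (adjusted p = 0.27 by limma). ATMG00690 had 7.88 and 14.5 in *s2lb-2* and 5.25 and 2.79 in WT, a log2 fold change of 1.27 (SE 0.552, adjusted p = 0.32 by limma). ATMG00510 had 3.94 and 2.07 in *s2lb-2* and 6.30 and 9.29 in WT, a log2 fold change of -1.15 (SE 0.547, adjusted p = 0.36 by limma). These rest on 10 reads or fewer in some libraries. ATMG00660, with 38.4 and 40.3 in *s2lb-2* and 35.7 and 19.5 in WT, also did not overlap, and its log2 fold change was 0.56 (SE 0.376).

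Library 2 was above library 1 for 21 of 28 mitochondrial genes in *s2lb-2* and for 16 in WT, and in both for 12 (42.9%). The median fold of library 2 over library 1 was 1.47 in *s2lb-2* and 1.06 in WT, lower than for chloroplast genes in both genotypes.

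The annotation pairs 52 mitochondrial identifiers with 54 nuclear genes in the insertion on chromosome 2. Of the 50-base stretches in the exons of these nuclear genes, 83.8% to 100% (median 100%) were also found in the mitochondrial sequence, and 28 pairs were at 100%. Among the 52 identifiers 11 (21.2%) had reads, with 25 reads in total, 0.0528% of all mitochondrial reads, and 2 reached the limit for the test. Among the other 100 identifiers 39 (39.0%) had reads, 47325 in total. These 100 have no annotated pair in the insertion and were not searched for nuclear copies. Identifiers at 0 included respiratory and ribosomal components. Apocytochrome *b* (ATMG00220) of complex III, NADH dehydrogenase 3 (ATMG00990) of complex I, ATPase subunit 6-1 (ATMG00410) and ATP synthase subunit 1 (ATMG01190) had no read, and neither did the ribosomal proteins L5 (ATMG00210), S4 (ATMG00290) and S7 (ATMG01270). ATMG00560 had the most reads of the 52, which were 8, and 92.5% of the stretches of its nuclear gene were also mitochondrial. ATMG00970, whose nuclear gene had the lowest share (83.8%), had 2 reads. Whether reads follow this share was not tested.

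**Figure D5:**
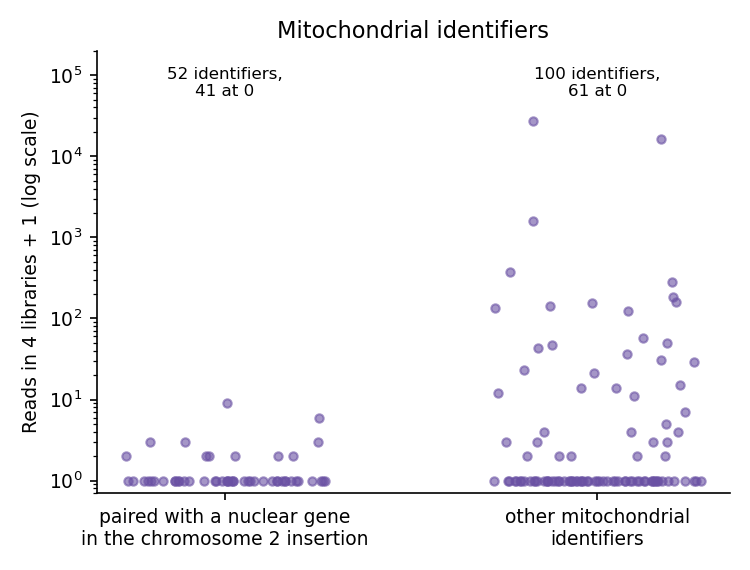
Reads summed over the 4 libraries, plus 1, on a log scale, for the 52 mitochondrial identifiers paired with a nuclear gene in the chromosome 2 insertion (left) and the other 100 (right). Each point is an identifier, spread sideways for display. The other 100 were not searched for nuclear copies. The left group held 41 identifiers at 0 and reached at most 8 reads, while the right group held 61 at 0 and reached 27455.

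The nuclear genes of these pairs also held few reads. Of the 54, 15 had reads, 148 in all, against 25 for the 52 mitochondrial identifiers. In the window *AT2G07660* to *AT2G07799*, 115 nuclear rows with mitochondrial stretches held 202 reads, while 17 rows without them held 7255. The highest were *AT2G07690* with 4624 reads and *AT2G07680* with 2622, neither with a mitochondrial stretch in its exons, and then *AT2G07715* with 51. Across the mitochondrial genome 70.6% of 50-base stretches were also found in the nucleus and 28.9% occurred once, against 2.43% and 64.6% for the chloroplast genome. Of 38 mitochondrial protein-coding genes in RefSeq, 15 had no stretch that occurs once. From the counts of 0 of these respiratory genes, a lack of transcripts and a lack of reads that map to 1 place cannot be told apart.

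Nuclear genes for the organelle transcription and RNA machinery were followed in lists, none of which held a gene called by limma (adjusted p under 0.01). The 6 plastid sigma factors, which direct PEP to its promoters, had log2 fold changes of -0.20 to 0.31 (median 0.04). Of the 12 PEP-associated proteins, *FSD2*, an iron superoxide dismutase, had the smallest p, with 977 and 986 normalized counts in *s2lb-2* and 1297 and 1264 in WT (log2 fold change -0.38, SE 0.086, adjusted p = 0.11). The median of the list was 0.04. The 3 phage-type polymerases had log2 fold changes of 0.13 to 0.19, and the smallest adjusted p among them was 0.49.

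The 7 genes of organelle RNA turnover had a median of -0.13, and *CSP41A*, which encodes an endoribonuclease of the chloroplast, had 30897 and 27798 normalized counts in *s2lb-2* and 25845 and 23117 in WT (log2 fold change 0.26, SE 0.100, adjusted p = 0.27). Among 8 MORF genes for editing factors the median was 0.12, and *MORF5* had 1361 and 1440 in *s2lb-2* and 1017 and 1096 in WT (log2 fold change 0.41, SE 0.093, adjusted p = 0.12). Of the 9 nuclear-encoded subunits that assemble with chloroplast-encoded partners, *RBCS2B*, a small subunit of Rubisco, had 229258 and 200331 in *s2lb-2* and 110571 and 113115 in WT (log2 fold change 0.94, SE 0.114, adjusted p = 0.032). It passed an adjusted p under 0.05 and not the threshold. It belongs to a family of similar *RBCS* copies, and its count holds only reads that map to 1 place. The median of these 9 genes was 0.03, and that of all genes tested was -0.00.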

How the data were processed

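RNA-seq libraries of 2 *s2lb-2* and 2 WT seedling samples were grouped by their titles. The authors trimmed 50-bp single reads, mapped them to TAIR10 with STAR 2.5.4b, counted uniquely mapped reads per Araport11 gene (the strand column is not stated) and divided them by DESeq2 size factors. The deposited signal is this normalized count. Division by the smallest step gave whole reads for 100% of values (tolerance 1e-06), between 34325097 and 39114300 per library. The deposited log2 fold change, its error, Wald score, p-value and mean from the authors' own comparison were not used, and 0 columns of other samples were present.

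Genes averaging 1 normalized count or more were fitted across the whole table with limma 3.58.1 (R 4.3.3, lmFit and eBayes with a trend, genotype as the only term) on log2(normalized count + 1), with Benjamini-Hochberg adjustment over all genes and a threshold of 0.01. Fits were tested on simulated data with independent genes and 1 common dispersion. That setting does not cover a shift shared by many genes of a library, as seen for the chloroplast genes. Alternatives used edgeR 4.0.16 (quasi-likelihood test), DESeq2 1.42.0 and limma-voom on recovered reads, other scalings, filters and pseudocounts, the replicate number as a term, and each library left out. Summed shares were compared by exact permutation. Counting floors (3 reads) cover counting error only, and precision is limited by 2 libraries per genotype.

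Stretches of 50 bases were searched on both strands of RefSeq TAIR10.1, whose mitochondrial sequence may differ from that used for mapping. Its notes pair 60 of the 285 identifiers with nuclear genes, not always with a description, and the others are given by identifier only. Named were the 12 chloroplast and 10 mitochondrial identifiers with the highest means, the 3 of each with the smallest p, copies shown by the reference, and the gene with the smallest p of a list; further names were chosen after seeing values. Members and lists were chosen with earlier results of these data known. The labels and the methods name different RNA extraction kits.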

Additional observations from a re-analysis of the deposited data

How the results depend on the processing

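No chloroplast and no mitochondrial gene was called (adjusted p under 0.01) with any test, scaling, filter, pseudocount or left-out library tried. The count over all genes moved much more: it was 29 as reported, 42 with edgeR and 730 with DESeq2 on recovered reads, 115 with edgeR on library totals, 74 when scaled by the nuclear total, 116 with no filter on low values, 379 at an adjusted p under 0.05, and 0 in each fit without 1 library. With the replicate number as a block it was 663 (2.79%), with 0 chloroplast and 0 mitochondrial genes, and the smallest adjusted p was then 0.0527 (ATCG00190) and 0.12 (ATMG00160). Deviations of same-numbered libraries from their genotype means correlated at 0.178 over all genes, 0.293 over chloroplast and 0.259 over mitochondrial genes. With 2 libraries per genotype this is the same value as Pearson's r between the log2 ratios of library 2 over library 1. It is not a separate check. No source ties libraries of 1 number to a common batch, and they were not treated as pairs.

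Without 1 library, the chloroplast share of *s2lb-2* over WT ranged from 0.594 to 1.78, the mitochondrial share from 0.801 to 1.40 and the mitochondrial median from -0.17 to 0.45. Between libraries of the same number, a comparison chosen after seeing the data, the mitochondrial share was 0.803 for number 1 and 1.39 for number 2. Scaled to its own organelle's sum, the log2 fold change was -0.062 for ATCG00020, -0.0898 for ATCG00480, -0.032 for ATCG00680 and -0.0136 for ATMG00020. Leaving out 1 library turned the sign of 17 of the 26 identifiers named by rule, with these lowest and highest log2 fold changes: ATCG00020 -0.50 to 0.63, ATCG00120 -0.65 to 1.29, ATCG00170 -0.22 to 0.76, ATCG00180 -0.32 to 0.74, ATCG00270 -0.78 to 1.04, ATCG00280 -0.51 to 0.98, ATCG00340 -0.55 to 0.95, ATCG00350 -0.66 to 0.98, ATCG00480 -0.47 to 0.55, ATCG00490 -0.60 to 0.89, ATCG00680 -0.53 to 0.72, ATMG00020 -0.34 to 0.48, ATMG00030 -0.23 to 0.18, ATMG00060 -0.0378 to 0.99, ATMG00080 -0.0584 to 1.17, ATMG00090 -0.62 to 0.95, ATMG01390 -0.18 to 0.37. Of 360 alternatives over the 26, 325 kept their direction and side of the threshold and 0 passed it. The cause was not tested. The median SE was 0.714 for chloroplast and 0.524 for mitochondrial genes, against 0.169 for all genes tested. With the replicate number as a term in limma, it was 0.269 for chloroplast and 0.494 for mitochondrial genes. In that fit 7 chloroplast genes (7.61%) and 1 mitochondrial gene (3.57%) had an unadjusted p under 0.05, against 23.5% of all genes.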
